A study of Homo sapiens with 42 samples.

Results

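The enzymes that build nucleotides from small precursors were followed in 7 human acute lymphoblastic leukaemia cell lines treated with L-asparaginase. The group held 10 genes chosen by name, as the enzymes of the de novo pyrimidine and purine routes. The 4 pyrimidine genes were CAD, DHODH, UMPS and CTPS1, and the 6 purine genes were PPAT, GART, PFAS, PAICS, ADSL and ATIC. All 10 were found among the 50648 gene symbols shared by the 7 count tables, and all 10 passed the filter on low counts in each of the 7 lines.

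L-asparaginase is an enzyme drug for this leukaemia that breaks down asparagine and, more slowly, glutamine. Cells of each line were exposed to it at 1 IU/ml for 4 h or were left untreated, and gene expression was read by RNA sequencing. Nalm6, SUPB15, RS411, REH and 697 are B-precursor lines, and CEM and DND41 are T-lineage lines. All groups grew in RPMI-1640 medium with serum and added glutamine. Each of the 14 groups had 3 libraries, which gave 42 in all. A line is 1 established culture, so the 3 libraries of a group are repeats of that culture and not separate patients.

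De novo purine synthesis assembles the purine ring step by step on phosphoribosyl pyrophosphate (PRPP), drawing nitrogen from glutamine, glycine and aspartate and carbon from glycine, bicarbonate and formyl folate. De novo pyrimidine synthesis first closes a ring from glutamine, bicarbonate and aspartate and then attaches it to PRPP. Dividing lymphoid cells draw heavily on both routes, and the purine route is a target of the antileukaemic drugs methotrexate and mercaptopurine.

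The libraries held 15.07 to 77.14 M counts, with a median of 40.28 M, and every CEM library with L-asparaginase was deeper than the untreated CEM libraries. The 7 B-lineage markers summed to 823 to 2020 CPM (a gene's counts relative to the scaled total of its library, per mega count) in the B-precursor lines, where 6 of 7 T-lineage markers averaged below 1 CPM. The T-lineage markers summed to 1390 to 2100 CPM in CEM and DND41. The B-lineage sum was 37.4 to 63.5 CPM in CEM and 661 to 1090 CPM in DND41, where 3 of 7 B-lineage markers with L-asparaginase and 4 of 7 without it averaged below 1 CPM. The T-lineage sum was 5.65 to 122 CPM in the B-precursor lines. The 6 myeloid markers summed to 0.118 to 72 CPM, with 43.7 to 70.2 CPM in treated REH, against 32.3 to 72 CPM untreated, and 23.8 to 25 CPM in treated RS411, against 8.64 to 16.4 CPM untreated. The erythroid markers summed to at most 0.0672 CPM and the stromal markers to at most 2.89 CPM in any library. The part of these other cell types' transcripts in the results was not tested. In 5 lines (all but REH and CEM) the untreated library named A, or 1 in 697, stood apart from its group, and the deviations of these 5 libraries had a median correlation of 0.708 with each other. With L-asparaginase, SUPB15 C, REH A and RS411 B held 89, 18 and 3 genes at 1 CPM or more that stood at 0.05 CPM or less in the other 5 libraries of the line, against at most 1 such gene in any of the other 39 libraries. Results that changed when these 8 libraries were left out are given below with and without them.

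Reference sequence around the start sites is shown first, because PAICS and PPAT, whose mean responses over the lines had opposite signs, share it. RefSeq windows of 300 bases, from 250 before a start site to 50 after it, were matched for 9 of 10 genes, with ADSL unmatched, and came to 14 windows. PPAT and PAICS lie head to head on chromosome 4, and the nearest PAICS start site is 137 bases from that of PPAT on the opposite strand, so that the windows share 236 bases. The window of PPAT at chr4:56435566-56435865 of GRCh38.p14, on the minus strand, was as follows, with capitals marking an E-box (CACGTG, its own reverse complement), the core site read by MYC and MAX.
PPAT: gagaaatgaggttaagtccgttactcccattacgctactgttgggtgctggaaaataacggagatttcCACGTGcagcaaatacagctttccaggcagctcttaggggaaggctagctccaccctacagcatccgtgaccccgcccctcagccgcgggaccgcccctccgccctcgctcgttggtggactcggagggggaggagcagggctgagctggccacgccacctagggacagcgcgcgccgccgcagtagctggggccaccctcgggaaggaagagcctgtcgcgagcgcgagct
The E-box began 182 bases before the PPAT start site and lay in the bases that the PAICS window also holds. PAICS has other annotated start sites 645 bases away and, on the far side of PPAT's start, at -25108 bases, whose windows held none of the motifs searched. CTPS1, whose transcript was also lower with the drug, has a window at chr1:40988269-40988568 that held none of the motifs searched. Its other window is chr1:40979446-40979745 on the plus strand. Capitals mark a match there to the core of the NRF1 site (CGCATGCG), 38 bases into the transcript.
CTPS1: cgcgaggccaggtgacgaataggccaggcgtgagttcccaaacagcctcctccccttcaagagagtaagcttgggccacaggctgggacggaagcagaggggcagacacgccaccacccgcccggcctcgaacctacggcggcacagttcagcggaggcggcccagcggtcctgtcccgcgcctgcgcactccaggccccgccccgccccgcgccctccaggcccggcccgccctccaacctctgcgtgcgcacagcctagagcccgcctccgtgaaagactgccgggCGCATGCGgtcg
The E-box also occurred in DHODH, 159 bases before the start site at chr16:72008573-72008602, and in ATIC at chr2:215312001-215312030 and chr2:215312076-215312105, all on the plus strand and shown as 30 bases with the motif in capitals.
DHODH: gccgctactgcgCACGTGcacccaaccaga
ATIC first: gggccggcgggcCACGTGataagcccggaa
ATIC second: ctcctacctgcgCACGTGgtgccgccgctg
Searched on both strands, the E-box was present in 7.26% of all 35114 windows and the NRF1 core in 2.02%. The core of the amino acid response element (TGATGNAA) was in 3.62% of all windows and in none of the 14. These matches describe letters and not occupied sites.

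Untreated levels were compared between the 7 lines, each gene against itself. All 10 genes differed between lines in edgeR's quasi-likelihood F test with Benjamini-Hochberg adjustment, beside a background of 86.7% of the 20983 genes tested. DHODH, the mitochondrial enzyme that oxidises dihydroorotate, was the most variable of the 10, with 3.6 times as many CPM in 697 as in REH. Its untreated libraries had 45.9, 47.7 and 51.7 CPM in 697, 24.6, 25.0 and 26.2 CPM in RS411, and 11.5, 13.4 and 15.4 CPM in REH. The 697 libraries lay above, and REH below, the untreated DHODH range of 15.6 to 28.6 CPM in the other lines. In the order 697, RS411, SUPB15, DND41, CEM, Nalm6 and REH, the step from 697 to RS411 (log2 difference 0.96, adjusted p = 2.54e-07 in edgeR, beside 47.4% of genes) and that from Nalm6 to REH (0.41, adjusted p = 0.0159 in edgeR, beside 40.1%) passed, and the 4 steps between them did not. With L-asparaginase DHODH again averaged 45.9 ± 1.93 CPM in 697 and 12.9 ± 1.11 CPM in REH (SD, n = 3 each).

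By mean untreated CPM the purine genes were mostly highest in 697, but with all libraries only PAICS differed there from the next line. PPAT, which commits PRPP to the purine route, ran from 697 (117 ± 15.7 CPM, SD, n = 3) through SUPB15, REH, Nalm6, RS411 and DND41 to CEM (67.8 ± 10.9 CPM), and only the last step passed, from DND41 to CEM (log2 difference 0.40, adjusted p = 0.0194 in edgeR, beside 35.2% of genes). PAICS, which carboxylates the growing ring and joins aspartate to it, averaged 749 ± 166 CPM in 697 and 557 ± 72.2 CPM in REH, the only neighbours in its order that differed with all libraries (0.44, adjusted p = 0.016 in edgeR, beside 48.8% of genes). It then followed the order CEM, RS411, DND41, SUPB15 and Nalm6 (472 ± 49 CPM). Untreated 697 had 935.6, 694.5 and 618.1 CPM of PAICS, the first in library 1, which stood apart from its group. GART, which carries 3 activities of the route including a formyl folate step, was highest in 697 (242 ± 24 CPM) and lowest in CEM (163 ± 10.8 CPM), with 1.49 times between them and 4 of 21 pairs of lines differing. ADSL, which releases fumarate from the aspartate adducts, ranged from 197 ± 47.8 CPM in 697 to 143 ± 24.7 CPM in DND41. ATIC, which closes the ring to IMP, was highest in RS411 (37.4 ± 3.25 CPM) and 697 (34.7 ± 5.88 CPM) and lowest in SUPB15 (17.8 ± 3.27 CPM), and 12 of its 21 pairs of lines differed. PFAS, a glutamine-using step, was highest in RS411 (137 ± 32.4 CPM) and lowest in DND41 (70.1 ± 18.4 CPM).

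Among the other pyrimidine genes, CTPS1, which makes CTP from UTP and glutamine and on which dividing lymphocytes depend, was highest in SUPB15 (181 ± 4.13 CPM, SD, n = 3) and lowest in REH (105 ± 15.7 CPM), and 12 of 21 pairs differed. UMPS, which converts orotate to UMP, was highest in REH (88.0 ± 4.87 CPM) and lowest in CEM (57.2 ± 1.83 CPM). CAD, the protein that carries out the opening steps of the pyrimidine route, was highest in RS411 (160 ± 35.9 CPM) and lowest in SUPB15 (77.05 ± 4.05 CPM). In UMPS, CTPS1, CAD, GART, PFAS, ADSL and ATIC no 2 neighbouring lines differed with all libraries. Over the 10 genes, 4 neighbouring pairs of lines then passed in edgeR, against 2 without untreated REH A. That library was the lowest of untreated REH for DHODH and for PAICS. Without the 5 untreated libraries that stood apart, 8 neighbouring pairs passed. Which pairs were lost or gained is not given here. The test over lines was weakest for CAD (adjusted p = 0.0411 in edgeR) and ADSL (0.0282). The CAD call was lost, in edgeR, without untreated Nalm6 A (adjusted p = 0.0587) or C (0.0534), SUPB15 A (0.079), B (0.0758) or C (0.0947), RS411 B (0.0812) or C (0.129), or DND41 B (0.0551) or C (0.0568). The ADSL call was lost without untreated 697 2 (0.0899) or 3 (0.0828), or DND41 B (0.0869) or C (0.0656), and with no filter on low counts (0.0912).

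**Figure D1:**
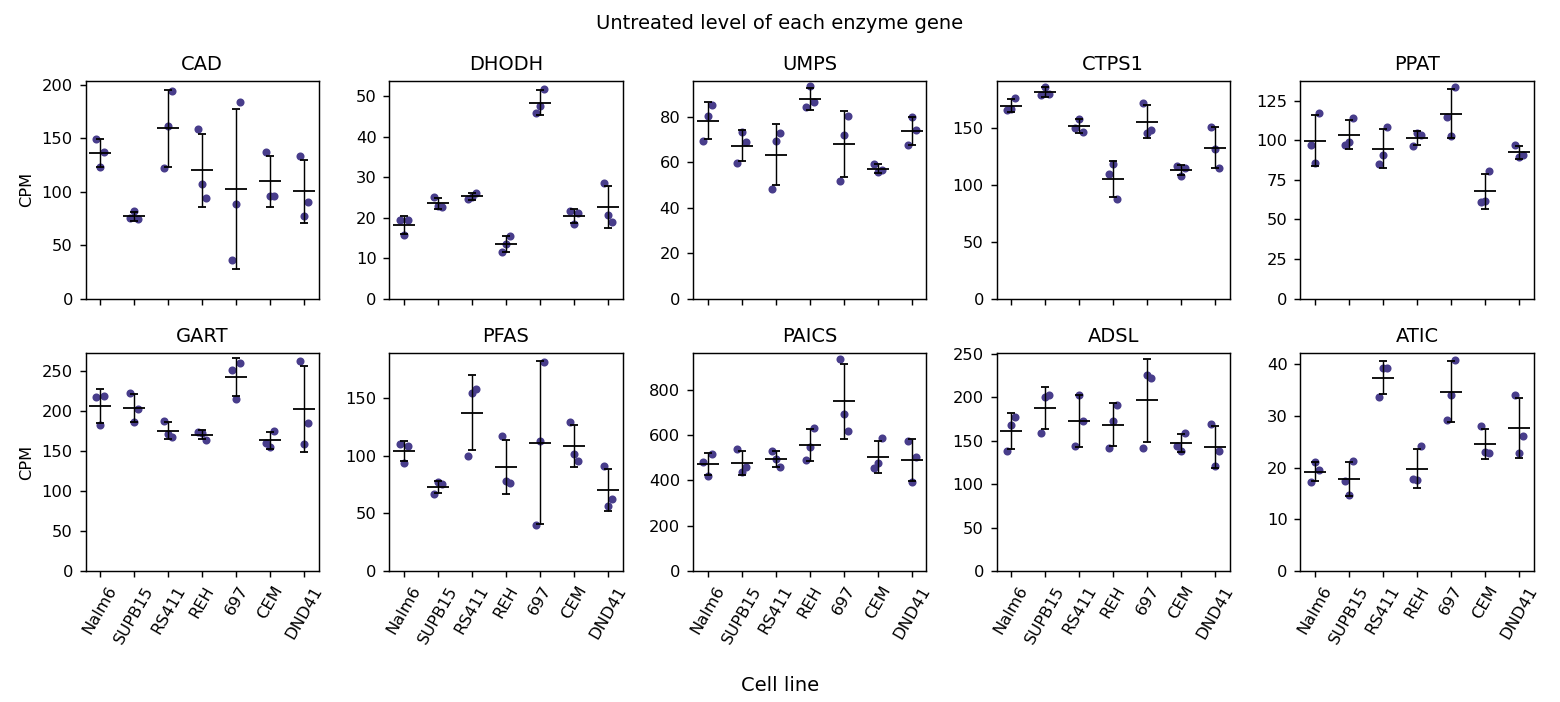
Untreated level of the 10 genes in CPM (vertical axis, from 0, its own scale per gene) by cell line (horizontal axis), with 1 point per library and the mean with its SD over 3 libraries. DHODH in 697 lies between 45.9 and 51.7 CPM, above every untreated library of the other lines, and the CAD and PFAS libraries of 697 spread most widely.

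L-asparaginase changed few of these transcripts within 4 h. Called at an adjusted p under 0.05 in the line's own edgeR test were 0 higher and 1 lower in Nalm6, beside 20.8% of all genes tested there in either direction. SUPB15 had 1 higher and 1 lower (26.1% of all genes), RS411 0 and 2 (12.8%), and REH 0 and 3 (26.5%). The line 697 had none in edgeR (2.4% of all genes), 2 at an unadjusted p under 0.05 and 2 under DESeq2. CEM had 1 higher and 2 lower (36.7%), and DND41 had 1 of each (26.9%), or 2 higher and 3 lower with a replicate block. In the mean of the 7 lines, PPAT was higher and PAICS and CTPS1 were lower, 3 of 10 beside 37.4% of 20983 genes. The median mean log2 fold change was -0.03 for the 10 genes and -0.02 for all genes tested. A count of 0 to 3 of 10 lay near these shares, and is no result about the group. The groups did not overlap for 4 of the 10 genes in Nalm6 (38.3% of all genes there), 5 in SUPB15 (43.3%), 4 in RS411 (36.2%), 4 in REH (40.2%), 3 in 697 (32.8%), 4 in CEM (47.8%) and 4 in DND41 (42.6%), again near the background.

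**Figure D2:**
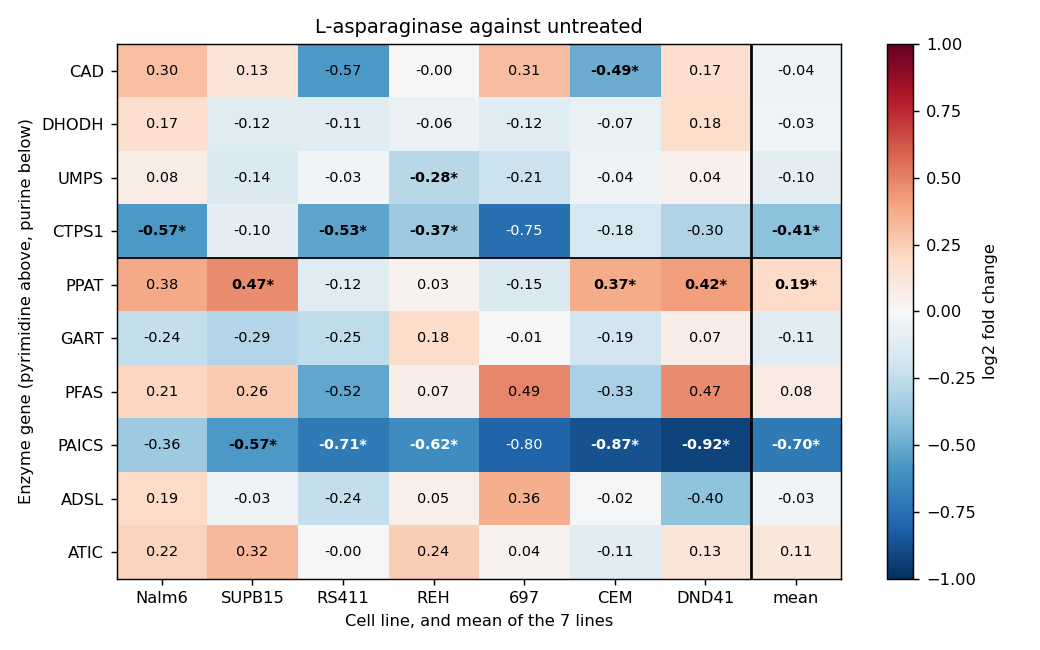
Log2 fold change with L-asparaginase against untreated for each gene (vertical axis) in each line and in the mean of the 7 lines (horizontal axis), in colour and as printed values. Bold values with an asterisk passed the adjusted p threshold. PAICS and CTPS1 are below 0 in every column, and the other genes are on both sides of 0.

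PAICS had the largest mean response of the 10 genes. With L-asparaginase its libraries had 309, 386 and 388 CPM in Nalm6, against 479, 420 and 517 CPM untreated. In SUPB15 they had 300, 335 and 322 CPM with the drug, against 538, 437 and 460 CPM untreated, and in RS411 290, 318 and 306 CPM against 532, 496 and 460 CPM untreated. In REH they had 365, 367 and 356 CPM with the drug, against 489, 549 and 633 CPM untreated. All 12 treated libraries of these lines lay below every untreated library of their own line. In 697 PAICS had 487, 425 and 431 CPM with the drug, against 936, 694 and 618 CPM untreated. In the T-lineage lines it had 312, 276 and 258 CPM in treated CEM, against 454, 476 and 586 CPM untreated, and 300, 230 and 224 CPM in treated DND41, against 573, 392 and 505 CPM untreated. The groups did not overlap in any of the 7 lines, as for 0.938% of the 11722 genes tested in all lines.

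PAICS fell in 5 of 7 lines, beside 2.46% of genes called lower in at least 5. In edgeR's quasi-likelihood test its log2 fold change was -0.57 ± 0.14 (SE) in SUPB15 (adjusted p = 0.0189), -0.71 ± 0.12 in RS411 (0.00977), -0.62 ± 0.12 in REH (0.00309), -0.87 ± 0.11 in CEM (0.000151) and -0.92 ± 0.18 in DND41 (0.00621). Nalm6, at -0.36 ± 0.14 (0.0938), and 697, at -0.80 ± 0.24 (0.133), did not pass. Without the untreated 697 library 1, the highest, PAICS passed in 697 at -0.55 (adjusted p = 0.0126 in edgeR), as it did with all libraries under DESeq2 (-0.80, 0.048). The SUPB15 call was lost without the treated library A (-0.54, adjusted p = 0.0601 in edgeR), B (-0.59, 0.0821) or C (-0.58, 0.0665), and the RS411 call without treated B (-0.73, 0.065) or C (-0.70, 0.0724). Over the 7 lines the mean log2 fold change was -0.70 ± 0.058 (SE, 95% interval -0.82 to -0.59, adjusted p = 3.23e-12 in edgeR over 42 libraries), or 1.63-fold lower. Untreated A was the highest library in SUPB15, RS411 and DND41, as was untreated 1 in 697. The mean was -0.61 when the 5 libraries that stood apart were left out. The response did not differ detectably between lines (interaction adjusted p = 0.372 in edgeR). The pseudogenes PAICSP1 to PAICSP7, whose reads could be confused with those of PAICS, had at most 1.26 CPM in any library. Whether fewer transcripts were made or each was lost faster cannot be told apart in these data.

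CTPS1 was the other gene below 0 in all 7 lines, beside 11.9% of genes. In Nalm6 it had 99.2, 120 and 115 CPM with L-asparaginase, against 165, 166 and 176 CPM untreated. In RS411 it had 97.4, 110 and 108 CPM with the drug, against 150, 158 and 146 CPM untreated, and in REH 77.8, 86.0 and 81.3 CPM against 109, 118 and 87.7 CPM untreated. The treated libraries lay below all untreated ones in 6 of 7 lines, as for 3.5% of genes at 6 or more lines. The lines with no overlap included 697, where CTPS1 had 104, 90.4 and 91.0 CPM with the drug, against 172, 145 and 148 CPM untreated. CEM, with 109, 103 and 95.6 CPM treated, against 116, 108 and 114 CPM untreated, was the line in which the groups overlapped. SUPB15 held the smallest difference on the log2 scale, with 167, 169 and 164 CPM treated, against 178, 186 and 179 CPM untreated.

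CTPS1 fell in 3 of 7 lines, beside 10.6% of genes called lower in at least 3. Its log2 fold change in edgeR's quasi-likelihood test was -0.57 ± 0.11 (SE) in Nalm6 (adjusted p = 0.00487), -0.53 ± 0.10 in RS411 (0.0142) and -0.37 ± 0.12 in REH (0.0466). The largest value, -0.75 ± 0.18 in 697 (adjusted p = 0.0755 in edgeR), did not pass with all libraries and passed without untreated library 1 (-0.62, 0.00202) and under DESeq2 (-0.75, 0.0137). With the replicate block CTPS1 also passed in DND41 (-0.29, adjusted p = 0.0431 in edgeR). The RS411 call was lost without treated A (-0.49, adjusted p = 0.0627 in edgeR), B (-0.55, 0.0898) or C (-0.54, 0.0893). The REH call was lost without treated A (-0.35, adjusted p = 0.108 in edgeR), B (-0.41, 0.0936) or C (-0.36, 0.138), or untreated A (-0.33, 0.0826) or B (-0.28, 0.197). Over the 7 lines the mean was -0.41 ± 0.041 (SE, 95% interval -0.50 to -0.33, adjusted p = 3.82e-10 in edgeR), or 1.33-fold lower. Its response differed between lines (interaction adjusted p = 0.0141 in edgeR, beside 19.4% of genes), and the response in 697 was below the mean of the others by a log2 difference of -0.38 ± 0.12 (SE, adjusted p = 0.0378 in edgeR, beside 9.11% of genes). The 697 difference was lost without untreated 697 1 (-0.27, adjusted p = 0.213 in edgeR), treated 697 2 (-0.33, 0.143) or 3 (-0.35, 0.124), or untreated SUPB15 C (-0.37, 0.0527). It was also lost with no filter on low counts (-0.35, 0.284) and without the line SUPB15 (-0.33, 0.125) or CEM (-0.35, 0.0908). It was -0.30 (0.107) without the 5 untreated libraries that stood apart and -0.39 (0.0626) without the 3 treated libraries that held genes their line otherwise lacked. The difference between lines missed the threshold without the line SUPB15 (0.139) or 697 (0.0511), and with no filter on low counts (0.235).

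CTPS2, the paralogue of CTPS1, was compared beside it. It had 0.0182 to 0.605 CPM in treated REH and 0.0546 to 0.101 CPM in untreated REH, and was not tested there. The 0.605 CPM came from treated REH A, one of the libraries with genes that its line otherwise lacked. In Nalm6 CTPS2 averaged 8.79 ± 0.697 CPM with L-asparaginase and 16.7 ± 1.59 CPM untreated (SD, n = 3 each), and in SUPB15 15.1 ± 1.00 CPM with the drug and 28.05 ± 1.12 CPM untreated. It fell in Nalm6, SUPB15 and CEM by log2 fold changes of -0.90, -0.88 and -0.53 (adjusted p = 0.00167, 0.00168 and 0.00257 in edgeR). CTPS2 also averaged lower with the drug in 697, at 21.3 ± 1.95 CPM, against 37.3 ± 2.63 CPM untreated. RS411 had 32.8 ± 0.652 CPM treated and 39.8 ± 3.21 CPM untreated, and DND41 had 19.99 ± 5.19 and 29.3 ± 2.21 CPM. The mean log2 fold change over all lines, REH included, was -0.51 (adjusted p = 0.00197 in edgeR). Without the treated libraries that held genes their line otherwise lacked, this mean was -0.82 (adjusted p = 3.6e-08 in edgeR). In SUPB15 the CTPS1 change was -0.10 (adjusted p = 0.526 in edgeR).

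PPAT was the only one of the 10 that passed as higher in the mean of the lines. In SUPB15 it had 120, 156 and 150 CPM with L-asparaginase, against 97.1, 99.0 and 114 CPM untreated. In CEM it had 88.0, 91.6 and 89.6 CPM with the drug, against 61.2, 61.8 and 80.4 CPM untreated, and in DND41 112, 127 and 120 CPM against 96.9, 89.4 and 90.7 CPM untreated. In these 3 lines every treated library lay above every untreated one. In the other lines the groups overlapped, with means of 128 ± 23.6 CPM treated and 99.8 ± 15.9 CPM untreated in Nalm6 and 104 ± 12.6 and 101 ± 4.65 CPM in REH (SD, n = 3 each). RS411 had 86.7 ± 2.95 CPM treated and 94.6 ± 12.2 CPM untreated, and 697 had 109 ± 11 and 117 ± 15.7 CPM.

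PPAT rose in 3 of 7 lines, beside 13.1% of genes called higher in at least 3. Its log2 fold change in edgeR's quasi-likelihood test was 0.47 ± 0.13 (SE) in SUPB15 (adjusted p = 0.0268), 0.37 ± 0.10 in CEM (0.0136) and 0.42 ± 0.12 in DND41 (0.0254). The mean of the 7 lines was 0.19 ± 0.051 (SE, 95% interval 0.09 to 0.29, adjusted p = 0.00284 in edgeR), or 1.14-fold higher. This SE and interval rest on the spread between libraries and not on that between lines, of which 5 were above 0 and 2 below. The SUPB15 call was lost without treated B (0.43, adjusted p = 0.138 in edgeR) or C (0.43, 0.113) or untreated B (0.43, 0.0961) or C (0.53, 0.0539). The CEM call was lost without untreated B (0.30, adjusted p = 0.0821 in edgeR). The DND41 call was lost without treated B (0.37, adjusted p = 0.127 in edgeR) or C (0.40, 0.126) or untreated B (0.38, 0.079) or C (0.39, 0.0809). In Nalm6, 0.38 ± 0.15 (0.0993) passed without treated A (0.52, adjusted p = 0.0472 in edgeR). The response differed between lines (interaction adjusted p = 0.0247 in edgeR), with the lowest values in 697 (-0.15) and RS411 (-0.12). That difference missed the threshold without the 3 treated libraries that held genes their line otherwise lacked (0.102) and without the line SUPB15 (0.062), RS411 (0.0871) or 697 (0.0531), and with no filter on low counts (0.157).

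**Figure D3:**
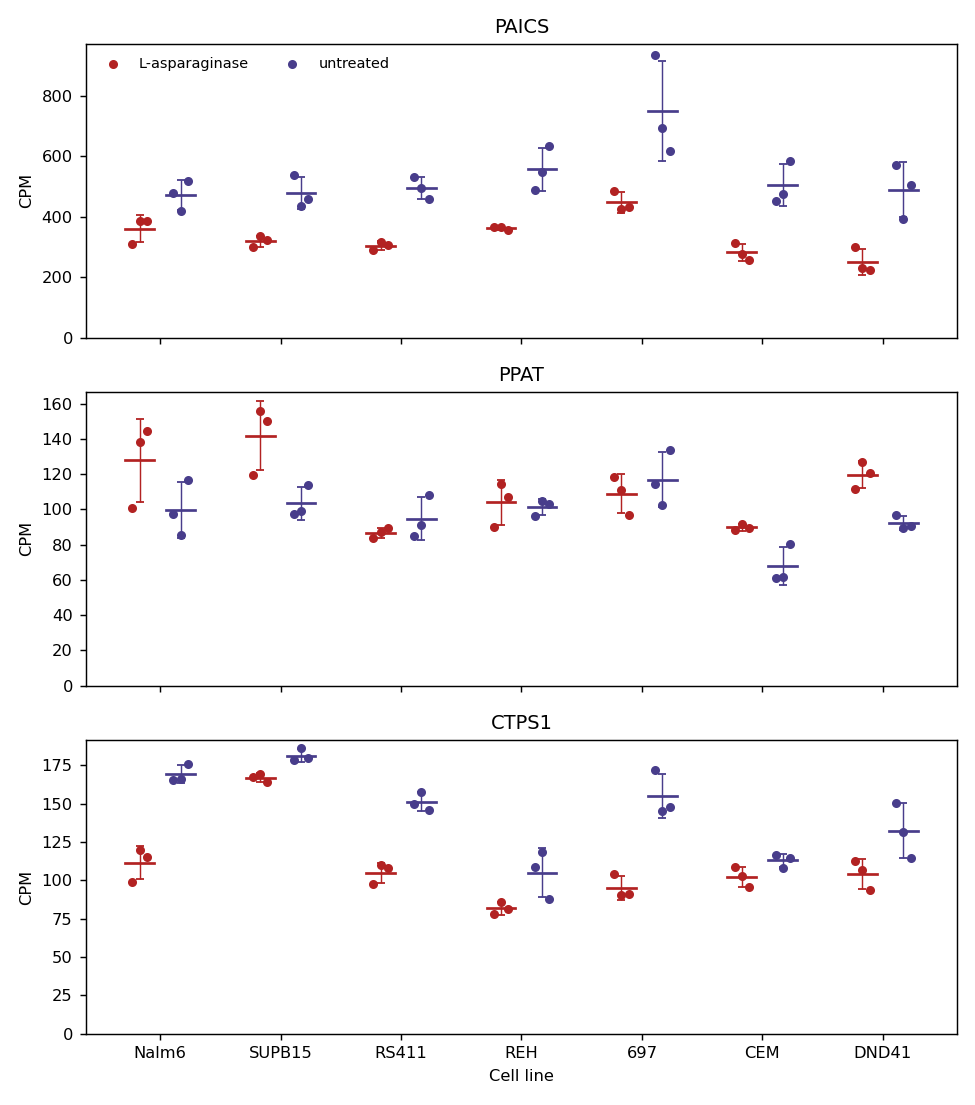
Level of PAICS, PPAT and CTPS1 in CPM (vertical axes, from 0) by cell line (horizontal axis), with L-asparaginase in red to the left of untreated in dark blue. Points are libraries, and bars are means with the SD over 3 libraries. The PAICS groups do not overlap in any line, with treated libraries at 224 to 487 CPM, and the PPAT groups are apart in SUPB15, CEM and DND41 only.

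Because PAICS and PPAT start beside each other and had means of opposite sign over the lines, although PPAT was below 0 in RS411 (-0.12) and 697 (-0.15), the ratio of their counts was taken within each library, which needs no scaling between libraries. The ratio was chosen after the values of both genes were seen, so it is given as a description with no test. It was 1.81 to 2.69 in treated DND41, against 4.38 to 5.91 in untreated DND41, and 2.88 to 3.55 in treated CEM, against 7.28 to 7.71 in untreated CEM. In the B-precursor lines it was 2.15 to 2.51 in treated SUPB15, against 4.03 to 5.53 untreated, and 2.68 to 3.06 in treated Nalm6, against 4.42 to 4.93 untreated. Treated REH had 3.2 to 4.06, against 5.09 to 6.13 untreated, treated RS411 3.42 to 3.64, against 4.25 to 6.28 untreated, and treated 697 3.83 to 4.44, against 4.63 to 8.17 untreated. Every treated library lay below every untreated library of its line in 7 of 7 lines. The CPM of PAICS alone were also apart in 7 of 7 lines, and the share of other gene pairs with such a ratio was not computed. The mean log2 difference over lines was -0.89 ± 0.31 (SD, n = 7), or 1.85-fold lower, and it was -0.81 when the 5 untreated libraries that stood apart were removed. The difference was deepest in the T-lineage lines DND41 (-1.33) and CEM (-1.25) and least deep in RS411 (-0.58), an order that was not tested.

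**Figure D4:**
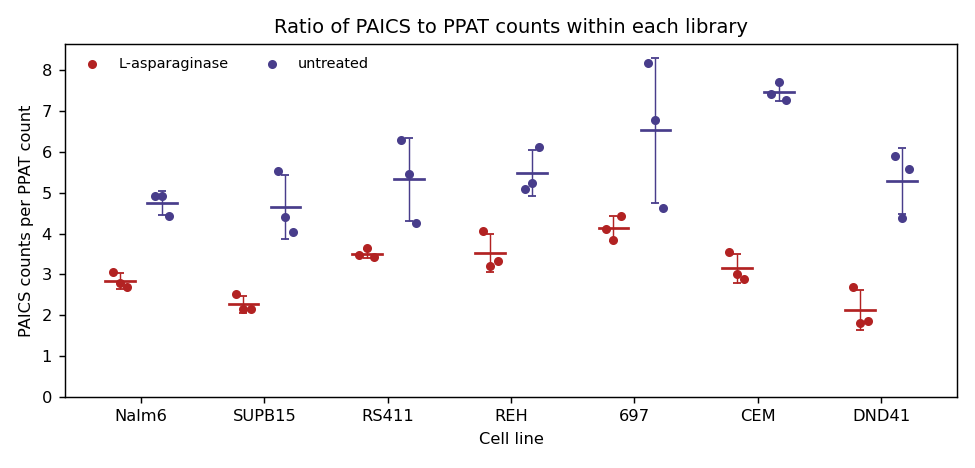
PAICS counts per PPAT count in each library (vertical axis, from 0) by cell line (horizontal axis), with L-asparaginase in red to the left of untreated in dark blue. Points are libraries, and bars are means with the SD over 3 libraries. Treated DND41 lies lowest, at 1.81 to 2.69, and the groups are apart in each line.

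CAD and PFAS, both large proteins that take nitrogen from glutamine, varied together across libraries. In 697 CAD had 127, 104 and 155 CPM with L-asparaginase, against 36.4, 88.2 and 184 CPM untreated, and PFAS had 163, 139 and 170 CPM with the drug, against 40.2, 112 and 181 CPM untreated. The untreated 697 libraries spanned the treated ones for both genes, with library 1 lowest and library 3 highest. Their log2 CPM correlated at r = 0.82 over all 42 libraries, the highest of any pair among the 10 genes, and at 0.94 after group means were removed. Over the 34 libraries left without the 8 that stood apart or held other genes, these values for CAD and PFAS were 0.77 and 0.90. Libraries share depth and RNA composition, so this is a description. Both transcripts are rich in G and C, at 57.7% for CAD and 58.2% for PFAS, above 76.4% and 78.2% of genes. In untreated 697 library 1, CAD deviated from its group mean by -1.20 and PFAS by -1.22 on the log2 scale, and the 1486 genes at least as GC-rich as CAD had a median deviation of -1.0. That median was -0.31 in untreated RS411 A (CAD -0.36, PFAS -0.43) and -0.39 in untreated SUPB15 A (-0.04, -0.12). In untreated Nalm6 A the median was -0.21, but CAD (0.13) and PFAS (0.08) were above their group means. The same held in untreated DND41 A, with a median of -0.18, CAD at 0.45 and PFAS at 0.41. The part of GC content in the values of CAD and PFAS was not tested.

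The mean log2 fold change of CAD was -0.04 (SE 0.11, 95% interval -0.26 to 0.19, adjusted p = 1 in edgeR). CAD fell in CEM, with 89.3, 72.3 and 78.5 CPM treated, against 137, 96.1 and 96.6 CPM untreated. The CEM groups did not overlap, with a log2 fold change of -0.49 ± 0.14 (SE, adjusted p = 0.016 in edgeR), but the call was lost without treated B (-0.44, 0.0769) or C (-0.48, 0.0658). In RS411 CAD had 118, 105 and 96.5 CPM treated, against 122, 162 and 194 CPM untreated, a log2 fold change of -0.57 ± 0.16 that lay just past the threshold (adjusted p = 0.0513 in edgeR) and passed without untreated A (-0.70, 0.00316), under RLE size factors (-0.58, 0.0456), with no filter on low counts (-0.56, 0.0182) and under DESeq2 (-0.57, 0.0158). In 697 its log2 fold change was 0.31 ± 0.49 with all libraries (adjusted p = 0.749 in edgeR) and -0.08 (0.845) without untreated library 1. In Nalm6, at 0.30 ± 0.14 (0.141), it passed without untreated A (0.41, adjusted p = 0.0361 in edgeR).

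**Figure D5:**
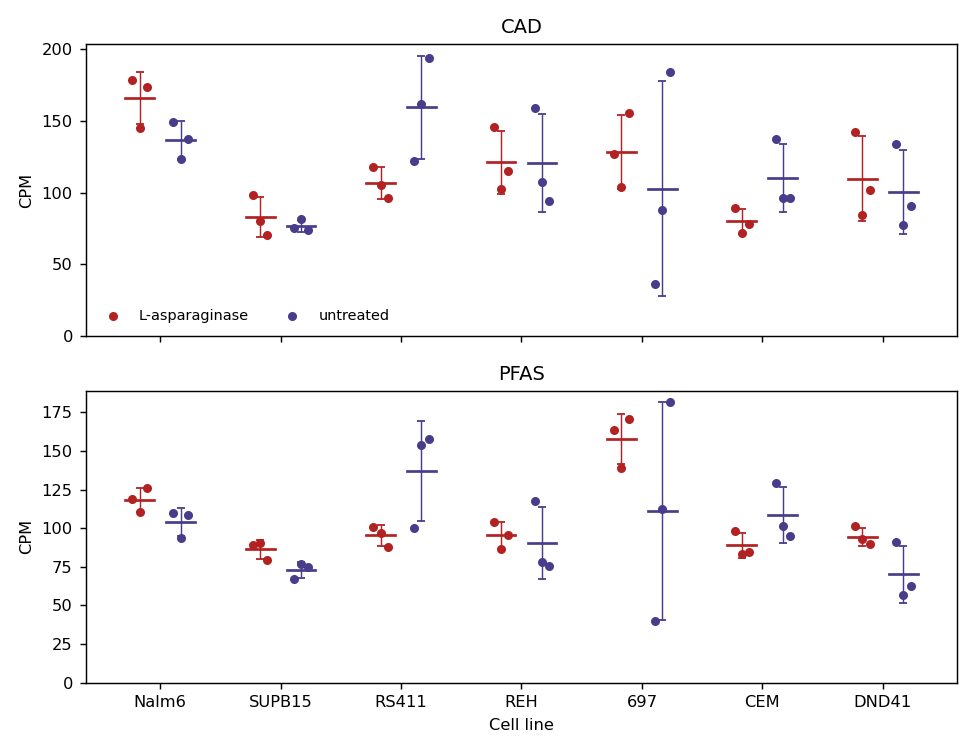
Level of CAD and PFAS in CPM (vertical axes, from 0) by cell line (horizontal axis), with L-asparaginase in red to the left of untreated in dark blue. Points are libraries, and bars are means with the SD over 3 libraries. Both genes spread most in untreated 697, where library 1 has 36.4 CPM for CAD and 40.2 CPM for PFAS.

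PFAS passed in no line and had a mean log2 fold change of 0.08 ± 0.096 (SE, adjusted p = 0.644 in edgeR). Its values ran from -0.52 ± 0.16 in RS411 (adjusted p = 0.068 in edgeR) and -0.33 ± 0.12 in CEM (0.0535) to 0.47 ± 0.18 in DND41 (0.0847) and 0.49 ± 0.45 in 697 (0.564). In DND41 PFAS had 101, 92.8 and 89.9 CPM treated, against 91.1, 56.6 and 62.7 CPM untreated. It passed there without untreated A (0.73, adjusted p = 0.00156 in edgeR), in SUPB15 without untreated A (0.29, 0.0408), in RS411 without untreated A (-0.67, 0.00115) and in CEM without untreated C (-0.42, 0.0094). With the replicate block it passed in CEM (-0.32, adjusted p = 0.0049 in edgeR) and DND41 (0.51, 0.00834). Under DESeq2 it passed in CEM (-0.34, 0.031) and RS411 (-0.52, 0.0337), and with no filter on low counts in CEM (-0.31, adjusted p = 0.0102 in edgeR), DND41 (0.48, 0.0187) and RS411 (-0.51, 0.0347). Under RLE size factors it passed in CEM (-0.34, adjusted p = 0.0443 in edgeR). The difference of response between lines did not pass for PFAS (adjusted p = 0.168 in edgeR), and passed without the 5 untreated libraries that stood apart (0.00034), without untreated 697 1 (0.025) or 3 (0.0085), or without the line 697 (0.0114). In that test CAD had an adjusted p of 0.391 in edgeR, and passed without the 5 libraries (0.0389) or without untreated 697 3 (0.0182).

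DHODH passed in no line, and its mean log2 fold change was -0.03 ± 0.051 (SE, 95% interval -0.13 to 0.07, adjusted p = 0.818 in edgeR). In DND41 it had 27.6, 24.5 and 22.8 CPM treated, against 28.6, 20.6 and 18.9 CPM untreated, and passed there without untreated A (0.40, adjusted p = 0.0427 in edgeR). UMPS had 68.7, 77.9 and 71.2 CPM in treated REH, against 84.2, 93.5 and 86.4 CPM untreated, with no overlap. It fell there by -0.28 ± 0.094 (SE, adjusted p = 0.0472 in edgeR), but no call was left when any 1 of the 6 REH libraries was removed (-0.34 to -0.24, adjusted p from 0.0547 to 0.197), nor under RLE size factors (0.0532), no filter (0.125) or DESeq2 (0.0766). The mean of UMPS was -0.10 ± 0.050 (adjusted p = 0.133 in edgeR), and it passed without untreated RS411 A (-0.12, 0.0416) and when the 5 untreated libraries that stood apart were left out (-0.15, 0.00178). In 697 it was -0.21 ± 0.18 (0.532), and -0.34 without untreated 1 (adjusted p = 0.0484 in edgeR).

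GART had 195, 190 and 196 CPM in treated REH, against 174, 173 and 164 CPM untreated, the only line in which its treated libraries were all higher. In SUPB15, RS411 and CEM all treated libraries were lower, with 147, 173 and 176 CPM in treated SUPB15, against 222, 186 and 202 CPM untreated. GART passed in no line, and in REH only with the replicate block (0.18, adjusted p = 0.0474 in edgeR). Its mean was -0.11 ± 0.049 (SE, adjusted p = 0.068 in edgeR). It passed without untreated Nalm6 B (-0.13, 0.0424), SUPB15 B (-0.12, 0.0481), 697 2 (-0.13, 0.0423) or DND41 B (-0.13, 0.02), without the line REH (-0.16, 0.0292) or DND41 (-0.14, 0.0153), and under DESeq2 (-0.12, 0.0436). The difference of response between lines had an adjusted p of 0.294 for GART in edgeR, and passed without the 5 libraries that stood apart (0.0356) or without untreated DND41 A (0.0333). GART shares a region of chromosome 21 with the gene SON, and ADSL and PFAS also lie against other genes, so that reads of the pair may mix where counting did not use the strand.

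ADSL passed in no line and had a mean of -0.03 ± 0.057 (SE, 95% interval -0.14 to 0.09, adjusted p = 0.907 in edgeR). In DND41 it had 108, 108 and 98.7 CPM treated, against 170, 121 and 138 CPM untreated, with no overlap and -0.40 ± 0.15 (adjusted p = 0.0707 in edgeR), and it passed without untreated B (-0.52, 0.0419) and with the replicate block (-0.39, 0.0231). In 697 it had 276, 266 and 237 CPM treated, against 142, 226 and 223 CPM untreated, again with no overlap but in the other direction, at 0.36 ± 0.20 (adjusted p = 0.359 in edgeR). In RS411 it was -0.24 ± 0.13 (0.257), and passed without untreated A (-0.32, adjusted p = 0.0449 in edgeR). Its difference of response between lines had an adjusted p of 0.0811 in edgeR, and passed without untreated RS411 A (0.0486) or 697 2 (0.0433), with the replicate block (0.0245) and under DESeq2 (0.0142). ATIC passed in no line and overlapped in all 7, with 16.1 to 42.2 CPM treated, against 14.8 to 40.9 CPM untreated. Its mean was 0.11 ± 0.070 (SE, 95% interval -0.03 to 0.25, adjusted p = 0.253 in edgeR).

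The steps around these enzymes were read from lists of neighbouring genes, by their mean over the 7 lines in edgeR beside 17.8% higher and 19.6% lower of all genes. PRPS2, UPP1, SLC1A3, NT5E, XDH and MYCN had 0 counts in all 3 libraries of at least 1 group. Their fitted means rest on such groups, so they are left out of the counts and medians. For UPP1, a pyrimidine salvage gene with 2 such groups, the fit gave 1.52 ± 0.53 (SE, adjusted p = 0.0238 in edgeR), called higher. Besides PRPS2, 3 genes were listed around PRPP synthesis, of which 0 rose and 2 fell, with a median of -0.23 for the 3. The 2 that fell were the synthetase-associated PRPSAP1 (-0.52 ± 0.067, SE) and the synthetase PRPS1 (-0.23 ± 0.057). The synthetase PRPS2, at 0 counts in untreated SUPB15, had 101 to 137 CPM in treated DND41, against 212 to 269 CPM untreated, and 58.4 to 59.6 CPM in treated CEM, against 75.1 to 95.3 CPM untreated. It fell in 5 of the 6 lines in which it was tested, by -0.98 in DND41 (adjusted p = 0.00204 in edgeR), -0.69 in Nalm6 (0.0039), -0.55 in CEM (0.000594), -0.49 in RS411 (0.0329) and -0.42 in REH (0.0164). In 697 PRPS2 was at -0.37 (adjusted p = 0.247 in edgeR). Of 5 genes that turn IMP into AMP or GMP, 0 rose and 2 fell, namely IMPDH1 (-0.54 ± 0.074) and IMPDH2 (-0.19 ± 0.067), which make xanthosine monophosphate. IMPDH1 averaged 22.7 ± 3.45 CPM in treated CEM and 41.0 ± 1.61 CPM in untreated CEM, and 16.99 ± 2.44 CPM in treated DND41 and 32.8 ± 1.61 CPM in untreated DND41 (SD, n = 3 each). The median of these 5 genes was -0.19. Of 6 purine salvage genes, 0 rose and 3 fell, namely ADA (-0.48 ± 0.093), HPRT1 (-0.29 ± 0.065) and PNP (-0.25 ± 0.048), with a median of -0.12. The PNP response differed between lines (interaction adjusted p = 3.72e-06 in edgeR), with 228 to 290 CPM in treated 697, against 139 to 175 CPM untreated, where the treated libraries were the higher ones.

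Pyrimidine salvage, with UPP1 left out, went both ways, with 2 of 7 genes higher and 1 lower and a median of 0.02. The mitochondrial thymidine kinase TK2 (0.51 ± 0.083, SE) and the uridine-cytidine kinase UCK1 (0.31 ± 0.061) rose, and UCK2 (-0.33 ± 0.058) fell. Of 12 genes of deoxynucleotide synthesis, DCTD (0.31 ± 0.060) and DTYMK (0.29 ± 0.087) rose and NME2 (-0.47 ± 0.12), the ribonucleotide reductase subunit RRM1 (-0.41 ± 0.047) and CMPK1 (-0.28 ± 0.068) fell, with a median of -0.07. Of 6 genes of nucleotide breakdown, 2 rose and 3 fell, with a median of -0.12. The largest of these was DPYD (-0.77 ± 0.076), which starts the breakdown of uracil and thymine. NT5E had 13.3 to 16.3 CPM in treated 697, against 25.8 to 44.8 CPM untreated (-1.33, adjusted p = 0.0533 in edgeR), and 48.8 to 70.7 CPM in treated SUPB15, against 81 to 89.4 CPM untreated (-0.44, 0.0583).

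Among the list genes that were counted, those that supply formyl folate, aspartate and glutamine included the largest rises. Of 7 formyl folate genes tested, 3 rose, namely MTHFD2 (1.14 ± 0.080, SE), MTHFD1L (1.02 ± 0.055) and SHMT2 (0.81 ± 0.086), and MTHFD2L fell (-0.21 ± 0.048). The cytosolic MTHFD1, which makes the formyl folate that GART and ATIC use, was at -0.01 ± 0.049 (adjusted p = 1 in edgeR), and the list median was -0.01. Of 7 genes of aspartate and glutamine supply, 4 rose and 2 fell, with a median of 0.70. The risers were the aspartate aminotransferase GOT1 (1.15 ± 0.070), asparagine synthetase ASNS (1.07 ± 0.099), the glutamine carrier SLC1A5 (0.87 ± 0.13) and SLC38A2 (0.70 ± 0.059), while GLUL (-0.45 ± 0.047) and GOT2 (-0.25 ± 0.040) fell. The ASNS response differed between lines (interaction adjusted p = 2.65e-06 in edgeR), with 219 ± 36.4 CPM in treated 697 and 43.8 ± 7.12 CPM in untreated 697, but 1.29 ± 0.205 CPM in treated RS411 and 1.34 ± 0.107 CPM in untreated RS411 (SD, n = 3 each). Of 4 candidate regulators, NRF1 (0.28 ± 0.042) and ATF4 (0.16 ± 0.053) rose, and MYC was at -0.04 ± 0.066 (adjusted p = 0.779 in edgeR), with a list median of 0.09. Without the 5 untreated libraries that stood apart, ADSS (0.11), a step to AMP, and the MYC partner MAX (0.12) also passed as higher, TK1 (-0.16), DUT (-0.19), RRM2B (-0.12), UCKL1 (-0.13) and SHMT1 (-0.24) were among those that passed as lower, while AMPD3 (-0.18, adjusted p = 0.106 in edgeR) no longer passed. Without the 3 treated libraries no call in these lists changed.

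Genes with a pattern most like CAD and PPAT were sought among 8510 genes by Pearson's r of log2 CPM over the 42 libraries, as a description. PFAS (0.82), MED24 (0.78) and GCN1 (0.76) were nearest to CAD, and PWWP2A (0.79), GTF2F2 (0.76) and RPP40 (0.74) were nearest to PPAT. Over the 34 libraries, those nearest to CAD were GCN1 (0.79), PFAS (0.77) and TCOF1 (0.76), and those nearest to PPAT were SEC23IP (0.82), PWWP2A (0.82) and PUM3 (0.81). Over all libraries the genes nearest to CAD were GC-rich like it, at 56.3% or more, while PPAT (37.9%) and those nearest to it were at 43.3% or less. PAICS, at 42.3%, was not among the 3 nearest to PPAT.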

How the data were processed

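The authors deposited the RNA sequencing of each cell line as a table of raw counts by gene symbol, with no normalization. The submitters' processing notes name the hg19 build, and for the aligner, counter, annotation and strand setting no source used here gives a name. Columns of 697 carry the replicate numbers of the labels. Columns of the other lines carry letters that no label uses, so each stands for its group only, as an unnumbered replicate. Columns of no sample numbered 0, and 2 date-like names that occur more than once were left out (at most 0.000949% of a library). The labels describe independent experiments on 1 culture per line, so p-values measure the spread between these libraries.

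Each line was tested on its 6 libraries with edgeR 4.0.16 in R 4.3.3 (TMM, filterByExpr with a minimum count of 10, glmQLFit and glmQLFTest, Benjamini-Hochberg over all genes tested, threshold 0.05). A second model over 42 libraries gave the mean response, its difference between lines and the untreated differences. The SE, interval and p-value of each mean response rest on the spread between libraries within groups, and not on the spread between lines. CPM used TMM factors over all libraries, and log2 CPM a prior count of 2. Counts at the median depth put about 40 counts behind 1 CPM. Both models recovered large changes placed in simulated counts. Those counts had the same spread for every gene and no libraries that stood apart, so recovery with such libraries was not checked.

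The 10 genes, the neighbouring lists and the libraries left out were chosen with earlier results of these data known. Named were all 10 genes, up to 4 changed genes of each list with the largest mean change (others of the lists were named after their values were seen), the pair of the 10 with the highest r, and the 3 genes most like CAD and PPAT among those averaging at least 3 on the log2 CPM scale. Alternatives were RLE size factors, no filter, DESeq2 1.42.0, a replicate block, and leaving out each library, each line or the libraries that stood apart. Leave-one-out models of all lines kept the dispersion trend of all 42 libraries. Letters paired treated with untreated libraries (every correlation of same-letter deviations over 0.1) in SUPB15, RS411, REH, CEM and DND41, with a lowest correlation of 0.102 in RS411, where a pair of different letters reached 0.239, and not in Nalm6 (0.053) or 697 (-0.075). GC content was computed from GENCODE transcripts, and promoter windows came from RefSeq. A gene of the neighbouring lists is not reported here.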

Additional observations from a re-analysis of the deposited data

Results flagged for a closer look

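The response of CTPS1 to L-asparaginase differed between the 7 lines in the interaction test of edgeR (adjusted p = 0.0141), and so did that of PPAT (adjusted p = 0.0247). The response of CTPS1 in 697 was below the mean of the other lines by a log2 difference of -0.38 (adjusted p = 0.0378 in edgeR). These 3 results were picked out because the effect of the same treatment differed between lines. None of them held under every alternative. Other than leaving out 1 library, the CTPS1 difference missed the threshold under 3 of 13 alternatives and the PPAT difference under 5 of 13. CTPS1 in 697 missed it under 5 of 11, and when any of 4 single libraries was left out.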

How the results depend on the processing

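The mean responses of PAICS (-0.74 to -0.61 over 13 alternatives other than leaving out a library), CTPS1 (-0.46 to -0.35) and PPAT (0.14 to 0.25) kept their direction and their side of the threshold under each, and when any 1 of the 42 libraries was left out (-0.72 to -0.66, -0.43 to -0.38 and 0.17 to 0.21). The alternatives other than leaving out 1 library gave 600 values, for single genes or for the ratio of PAICS to PPAT. Of these, 546 kept their side of the threshold and, where they had one, their direction, 17 no longer passed, 27 newly passed and 10 changed sign. Leaving out 1 library left 1 to 2 of the 10 genes called in Nalm6 (1 with all libraries), between 0 and 3 in SUPB15 (2), between 0 and 5 in RS411 (2), 1 to 2 in REH (3), between 0 and 3 in 697 (0), 2 to 4 in CEM (3), 1 to 4 in DND41 (2), 3 to 4 in the mean (3), 2 to 4 for differing responses (2), 8 to 10 for untreated levels (10) and 2 to 6 for neighbouring untreated lines (4). Counts of all genes called in 697 then ranged from 5 to 3664, and were 16 with the block and 1414 under DESeq2, against 367. The replicate block gave 2 of the 10 genes in Nalm6 and 5 in DND41, where the letters pair the libraries and CTPS1 (-0.29), PFAS (0.51) and ADSL (-0.39) joined PAICS and PPAT. Across all genes it raised the calls in REH to 6683, against 4120 without it. Beside those named in the report, the block changed no call of the 10 genes in the lines it pairs. With no filter on low counts 4 were called in RS411 and 0 for differing responses. DESeq2 gave 4 in RS411 and 2 in 697. Differing responses numbered 5 without the 5 untreated libraries that stood apart, when neighbouring untreated pairs numbered 8, and 1 without the 3 treated libraries. They numbered 0 without SUPB15 and 1 without RS411 or 697. Leaving out 1 library moved the log2 ratio of PAICS to PPAT between -0.92 and -0.86.

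Changes of sign occurred in values that passed in neither setting. They were ATIC in RS411 (0.0124) and GART in 697 (0.0358) without a filter, CAD in REH (0.0267), GART in 697 (0.0013) and the mean of CAD (0.0043) with the replicate block, the mean of DHODH without the 5 libraries (0.0305), the mean of CAD without RS411 (0.0653) or CEM (0.0470), and the mean of ADSL without RS411 (0.0213) or DND41 (0.0436). Leaving out 1 library moved CAD between -0.0216 and 0.2267 in SUPB15, -0.1684 and 0.2673 in REH, -0.0776 and 0.9811 in 697, -0.0651 and 0.4553 in DND41, and -0.0802 and 0.0632 in the mean. It moved DHODH between -0.1650 and 0.0177 in SUPB15 and -0.1501 and 0.0321 in REH, and UMPS between -0.1571 and 0.0679 in RS411 and -0.0860 and 0.1505 in DND41. ADSL ranged over -0.1203 to 0.0660 in SUPB15, -0.0450 to 0.1422 in REH and -0.0661 to 0.0341 in CEM, and PPAT and PFAS in REH over -0.0461 to 0.1126 and -0.0603 to 0.3168. GART ranged over -0.0887 to 0.0686 in 697 and -0.0856 to 0.3313 in DND41, and ATIC over -0.0428 to 0.0628 in RS411, -0.0760 to 0.1335 in 697, -0.0063 to 0.3317 in DND41 and -0.2271 to 0.0013 in CEM. The causes were not tested. Values of CTPS2 in REH rest on few counts.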
